A study of Mus musculus with 24 samples.

Results

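Hypoxia without aortic constriction was examined in the sham-operated arm of a mouse heart experiment. The comparison covered 6 hypoxia sham and 6 normoxia sham libraries, that is 12 of the 24 RNA sequencing libraries of the series. These 12 were picked out by their labels and were fitted by themselves, because the spread between libraries was far smaller in them than in the other 12. The comparison was chosen with earlier results of these data known. The series combined 2 housing conditions, normoxia and hypoxia, with 2 operations, sham surgery and transverse aortic constriction (TAC), in which a ligature tied against a 25-gauge needle narrows the aortic arch and raises the pressure the left ventricle works against. All animals were wild-type C57/Bl6J mice killed on day 3 after surgery, and RNA came from the apex of the heart, which is mainly ventricular muscle with its vessels, fibroblasts and resident immune cells. The normoxia sham group therefore had surgery without constriction and housing at normal oxygen, and by the labels the hypoxia sham group differed from it in the housing. The labels give oxygen only as these words, with no oxygen level, length of exposure, age, sex, harvest hour or batch, and they do not state that each numbered library is a separate animal, so p-values measure the spread between libraries. The sample numbers over the count columns fell in separate ranges for the hypoxia and normoxia libraries. The labels do not say what these numbers order, and any handling that followed them cannot be told apart from oxygen. The library kit was one designed for low input, used here on 100 ng of RNA.

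Low oxygen is sensed in cells through prolyl hydroxylases that need oxygen to mark the HIF alpha subunits for destruction; when oxygen falls, HIF accumulates and switches on genes for glycolysis, vessel growth and its own feedback. The adult heart normally draws most of its energy from fatty acids, a programme controlled by the nuclear receptor PPAR-alpha, and a shift from fat towards glucose is the classical response of the heart to scarce oxygen. Hypoxia is also known to constrict the lung arteries, to raise red cell production and to act on the molecular clock, whose proteins share a domain family with HIF.

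Sequencing depth differed between the groups: normoxia sham libraries held 11900499 to 15058159 assigned reads and hypoxia sham libraries 10218681 to 11331860, and these ranges did not overlap. No 2 libraries of a group agreed within sampling noise. Levels are given here as CPM, read counts scaled to library total and composition, which compare libraries for 1 gene and are not corrected for gene length. The tissue label was borne out by the data: the 16 cardiomyocyte markers summed to 96640 to 107000 CPM under normoxia and 97640 to 104200 CPM under hypoxia. Defining markers of other tissues were at or near 0, with at most 5 reads in any sham library for the atrial myosin light chain Myl7, 3 for the skeletal myosin Myh4 and 9 for the fat cell gene Adipoq. The bulk tissue cannot tell apart fewer cells of a type from less RNA per cell, in any result here.

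Between the hypoxia sham and normoxia sham libraries there were many small changes. Of 14409 genes tested, 947 rose and 711 fell at an adjusted p below 0.05 (edgeR quasi-likelihood test, Benjamini-Hochberg adjustment over all tested genes), 11.5% of the genes tested, with 6.57% higher and 4.93% lower. The median absolute change of a called gene was 1.30-fold, 265 rose and 128 fell by at least 1.5-fold, and 61 rose and 32 fell by at least 2-fold. The calls rested in part on single libraries: 958 of the 1658 (559 higher and 399 lower) were called in each of the 12 fits that left out 1 library, and the count of falls dropped to 473 without normoxia sham 2. In 1 model of all 24 libraries, in which the sham libraries take on the larger spread of the TAC libraries, only 13 genes rose and 12 fell. Below, a gene is said to rise or fall when it passed in the fit of the 12 sham libraries, and unless stated otherwise a gene named as changed also passed in each of the 12 fits without 1 library. Changes are given on the log2 scale, hypoxia against normoxia, with the standard error. Counts of called list members are to be read beside the 6.57% of all tested genes that rose and the 4.93% that fell.

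The clock genes were among the larger of these changes: 11 of 13 repressors and output factors fell and 4 of 6 activators rose. Ciart, a clock-controlled repressor, had the largest fall of the clock lists, at -2.83 ± 0.34 on the log2 scale (adjusted p = 0.00057). The remaining 1643 called genes lay outside the clock lists and are the subject of what follows. The harvest hour was not given, and the part of time of day in the changes of these genes was not tested.

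**Figure D1:**
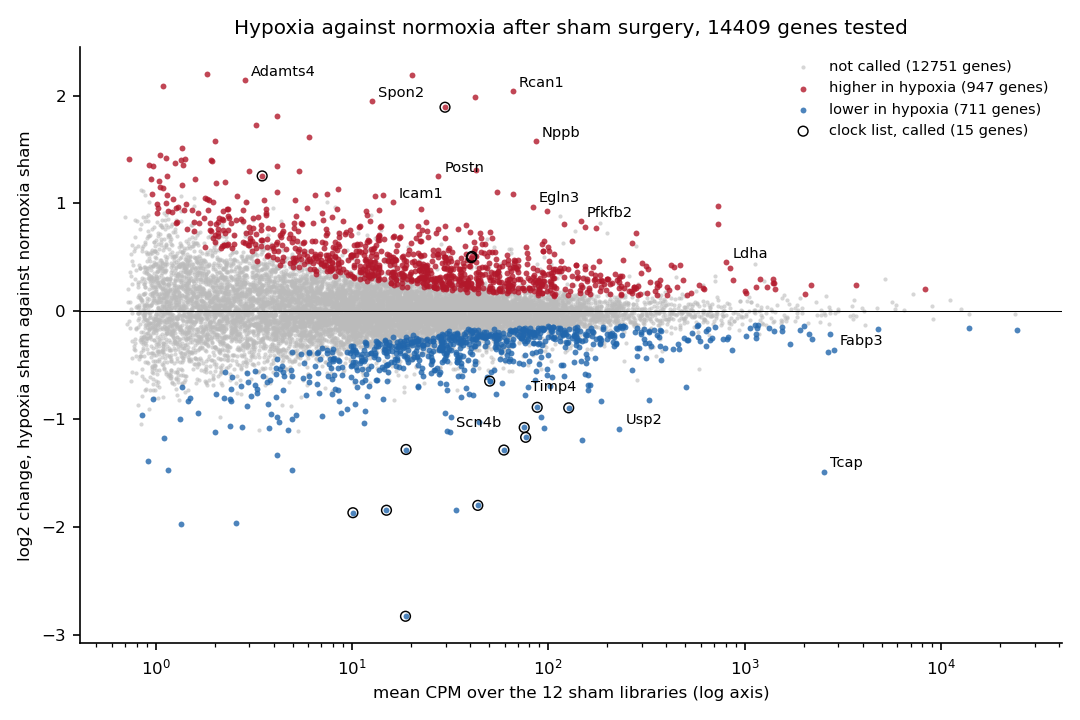
Log2 change under hypoxia (vertical axis) against mean CPM on a log axis (horizontal axis) for the 14409 genes tested in the 12 sham libraries. Red and blue points are the 947 genes that rose and the 711 that fell, grey points the others, and black rings the 15 called clock genes; named points are genes described in the text.

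**Figure D2:**
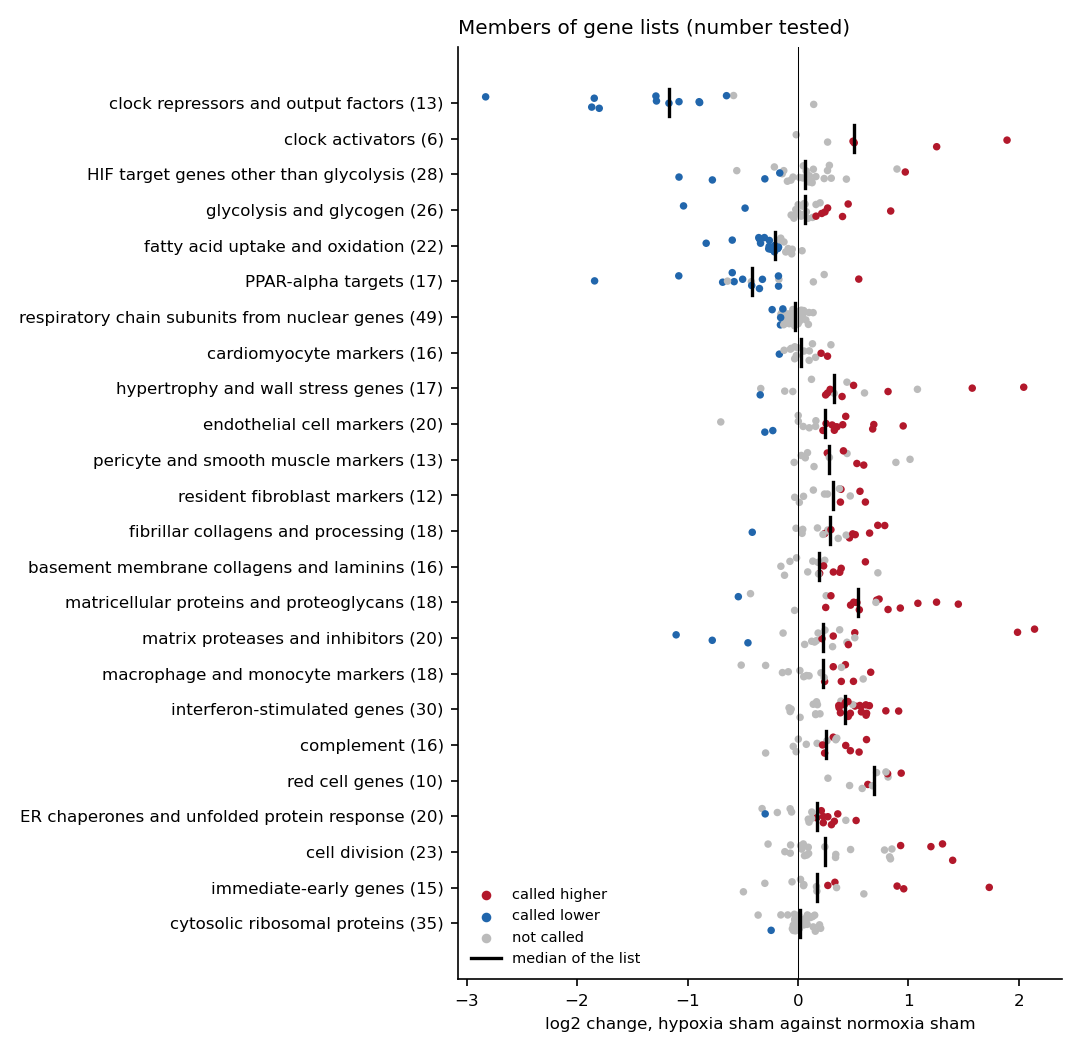
Log2 change of each member (point) of 24 gene lists, with the number of members tested in brackets, called members in colour and the list median as a black bar. The members of the fatty acid lists lie mostly left of 0 and those of the matricellular and interferon lists mostly right of 0, while respiratory chain subunits and ribosomal proteins lie close to 0.

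The oxygen-sensing pathway itself changed in 2 of its 9 tested components. Egln3, the prolyl hydroxylase PHD3 and itself a well-known HIF target, was measured at 53.3, 54.6 and 62.6 CPM (lowest, median and highest of 6 libraries) under normoxia and 67.6, 124 and 142 CPM under hypoxia. The groups did not overlap, which was so for 5.14% of all tested genes (2.9% with hypoxia above, 2.24% with hypoxia below). The 4 libraries hypoxia sham 1 to 4 lay far above the normoxia libraries while hypoxia sham 5 and 6 lay just above the highest normoxia library. Its change was 0.97 ± 0.20 on the log2 scale (adjusted p = 0.00991). Epas1, which encodes HIF-2alpha, fell slightly, from 524, 560.4 and 602 CPM to 449.5, 464 and 481 CPM. No hypoxia library reached the normoxia range, and the change was -0.27 ± 0.04 on the log2 scale (adjusted p = 0.000373). Hif1a, the other main alpha subunit, was measured at 97.7, 115 and 138 CPM under normoxia and 82.7, 129 and 154 CPM under hypoxia; the groups overlapped and it was not called (log2 change 0.11 ± 0.16, adjusted p = 0.716).

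In the list of HIF targets outside glycolysis, most genes were not called. Of 28 tested, 1 rose and 4 fell, beside 6.57% and 4.93% of all tested genes. Their median log2 change was 0.06, against -0.001 over all genes tested. The 1 that rose was Egln3. The 4 that fell were Bhlhe40, which is a clock repressor as well, the secreted glycoprotein Stc2, the water channel Aqp1 and the lipoprotein receptor Vldlr, and the falls of Aqp1 and Vldlr were lost when normoxia sham 2, hypoxia sham 2 or hypoxia sham 3 was left out, which brings the count to 2. Vldlr was also lost without normoxia sham 3, 5 or 6 or hypoxia sham 1 or 4, and 2 members rose without normoxia sham 4. Vegfa, the main vessel growth factor, stayed uncalled at 3.82, 5.45 and 7.15 CPM under normoxia and 5.26, 6.71 and 7.8 CPM under hypoxia (log2 change 0.27 ± 0.16, adjusted p = 0.319). The vasodilator peptide gene Adm likewise overlapped between groups, at 11, 12.5 and 18.9 CPM under normoxia and 12.5, 16.8 and 20.3 CPM under hypoxia (log2 change 0.28 ± 0.14, adjusted p = 0.206). The reads of Car9 and Epo, textbook markers of strong hypoxia in other tissues, were too few to test, with at most 9 and 0 in any sham library.

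Glycolysis changed at selected steps. Of 26 tested genes of glucose entry, glycolysis and glycogen, 7 rose and 2 fell, and the list median was 0.06. The largest rise was in Pfkfb2, the heart form of the enzyme that makes fructose 2,6-bisphosphate, the strongest activator of phosphofructokinase. Pfkfb2 lay at 90.7, 105 and 115 CPM under normoxia and 169.6, 185 and 208 CPM under hypoxia, so every hypoxia library exceeded every normoxia library by a wide margin (log2 change 0.84 ± 0.06, adjusted p = 2.24e-07). Its sister isoforms went the other way: Pfkfb1 fell from 12.5, 16.6 and 17.4 CPM to 5.61, 7.75 and 8.86 CPM (log2 change -1.04 ± 0.12, adjusted p = 3.36e-05), again with no overlap. Pfkfb3 fell too, by a smaller amount (log2 change -0.48 ± 0.12, adjusted p = 0.0137). Levels in CPM are not corrected for length, so the 3 isoforms are not ranked here.

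Ldha, the lactate dehydrogenase subunit that favours lactate formation, rose from 618, 665 and 797 CPM to 799, 942 and 1025 CPM (log2 change 0.45 ± 0.06, adjusted p = 0.000215). The ranges were separate, though the lowest hypoxia library, number 5, stood only just above the highest normoxia library, number 3. Among the other enzymes of the pathway that rose, hexokinase Hk1 changed by 0.27 ± 0.05, the phosphofructokinase Pfkp by 0.40 ± 0.09, aldolase Aldoa by 0.24 ± 0.05 and pyruvate kinase Pkm by 0.16 ± 0.04, all log2. Pfkl also rose, but not when hypoxia sham 1 was left out. Of the 26 genes 17 did not pass, among them the glucose transporters Slc2a1 and Slc2a4 with log2 changes of 0.20 and 0.03, Gapdh with 0.06, Pgk1 with -0.02 and Hk2 with -0.02.

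The upstream sequence is shown for Ldha and Pfkfb2, the pair of glycolytic genes with the largest rises, because HIF recognises a short core, ACGTG, in many of its target promoters. Each line holds the 250 bases before a RefSeq start site (build GRCm38.p6), with ACGTG on either strand in capitals. Where a gene had several start sites, the window with the most matches is shown. The 6-base E-box CACGTG, a clock factor site, contains this core on both strands.
Ldha (chr7:46845554-46845803, forward strand): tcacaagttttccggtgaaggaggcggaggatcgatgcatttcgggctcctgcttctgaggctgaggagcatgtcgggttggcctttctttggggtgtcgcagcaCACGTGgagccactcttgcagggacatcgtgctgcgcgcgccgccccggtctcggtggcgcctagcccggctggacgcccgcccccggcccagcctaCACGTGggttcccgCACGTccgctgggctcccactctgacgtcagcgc
Pfkfb2 (chr1:130715822-130716071, reverse strand): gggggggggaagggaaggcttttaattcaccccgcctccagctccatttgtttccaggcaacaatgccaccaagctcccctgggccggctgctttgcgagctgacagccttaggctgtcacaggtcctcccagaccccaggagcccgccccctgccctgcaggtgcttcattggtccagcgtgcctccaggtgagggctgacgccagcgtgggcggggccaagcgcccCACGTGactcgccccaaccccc
In the Ldha window 2 E-boxes and 1 further core gave 5 matches counted over both strands, and in the Pfkfb2 window 1 E-box gave 2. The core was found in 16.6% of all 32851 such windows, and the E-box in 6.02%. A gene was counted if any of its windows held the core, so shares of genes are not alike to shares of windows. Among tested genes the core was found in 22.1% of those that rose, 24.5% of those that fell and 24.7% of those not called. Among glycolytic genes it was found in 11 of 25 (4 of the 7 that rose). These are matches of letters only.

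Transcripts for fatty acid use fell along most of the pathway. Of 22 tested genes of fatty acid uptake and oxidation, 14 fell and none rose, each of the 14 also in every fit without 1 library, against 4.93% of all tested genes, and the list median was -0.21. Summed over the list, CPM ran from 25880 to 30560 under normoxia and from 22940 to 25160 under hypoxia, without overlap. Slc27a1, a fatty acid transport protein of the cell membrane, had the largest fall, from 173, 241 and 281 CPM to 105, 139 and 158 CPM (log2 change -0.83 ± 0.13, adjusted p = 0.00235). Fabp3, the abundant fatty acid binding protein of heart muscle, fell from 3080, 3190 and 3308 CPM to 2363, 2444 and 2688 CPM (log2 change -0.35 ± 0.04, adjusted p = 3.44e-05). For neither gene did the groups overlap.

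At the mitochondrial gate, the carnitine palmitoyltransferase isoform Cpt1a fell from 39.1, 41.5 and 45.1 CPM to 25.7, 26.9 and 32.3 CPM (log2 change -0.59 ± 0.07, adjusted p = 2.55e-05), every hypoxia library lying below every normoxia library. Cpt1b, the muscle isoform, did not pass (log2 change -0.17 ± 0.06, adjusted p = 0.0718). The acylcarnitine carrier Slc25a20 fell (log2 change -0.35 ± 0.05, adjusted p = 0.000356). Inside the matrix the falls were small and alike: the very-long-chain dehydrogenase Acadvl, the medium-chain dehydrogenase Acadm, both subunits of the trifunctional protein (Hadha and Hadhb), Hadh, Acaa2, Eci1 and Decr1 had log2 changes between -0.34 and -0.21. The electron acceptors Etfa and Etfdh both changed by -0.18. The scavenger receptor Cd36, a main route of fatty acid entry, did not pass (log2 change 0.04 ± 0.05, adjusted p = 0.686).

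The fall extended to PPAR-alpha and its targets, of which 11 of 17 fell and 1 rose (median -0.42); 8 of the 11 falls held in every fit without 1 library. Ppara itself fell from 104, 143 and 149 CPM to 92.4, 97.5 and 99.4 CPM (log2 change -0.50 ± 0.07, adjusted p = 0.000212). The ranges were separate, with normoxia sham 5 clearly below the other normoxia libraries. Acot2, a mitochondrial acyl-CoA thioesterase, fell from 186, 191 and 233 CPM to 113, 124 and 141 CPM (log2 change -0.68 ± 0.06, adjusted p = 2.52e-06), with no overlap; reads of Acot1 and Acot2, near-identical neighbours, may have been split between them. Ucp3, an uncoupling protein that follows fatty acid supply, fell from 87.4, 123 and 207 CPM to 46.9, 60.7 and 75.5 CPM (log2 change -1.08 ± 0.22, adjusted p = 0.0107). Pdk4, the kinase that blocks pyruvate entry into oxidation and is a standard PPAR-alpha readout, overlapped between groups and was not called (log2 change -0.64 ± 0.27, adjusted p = 0.172). The member that rose was Cyp4b1 (log2 change 0.55 ± 0.11, adjusted p = 0.00566).

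Genes with a role in lipid or mitochondrial metabolism were also called outside these lists. Slc25a42, the mitochondrial carrier of coenzyme A, had the smallest p-value of all genes outside the clock lists, and fell from 116, 125 and 137 CPM to 73.8, 77.1 and 85.1 CPM (log2 change -0.69 ± 0.05, adjusted p = 2.24e-07). Gpam, the first enzyme of glycerolipid synthesis, fell from 273, 324 and 352 CPM to 203, 217 and 227 CPM (log2 change -0.55 ± 0.05, adjusted p = 5.94e-06). In both genes every hypoxia library lay below every normoxia library. Of 11 regulators of mitochondrial biogenesis 3 fell and none rose (median -0.09), with 2 falls without normoxia sham 2 or 4 or hypoxia sham 2, 3 or 4. Beside Ppara, the coactivator Ppargc1b fell (log2 change -0.39 ± 0.06, adjusted p = 0.000364), and the nuclear receptor Esrra was the one lost in those fits (log2 change -0.27 ± 0.07, adjusted p = 0.0253). Ppargc1a, the better known coactivator of mitochondrial genes, did not pass (log2 change 0.14 ± 0.05, adjusted p = 0.099).

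**Figure D3:**
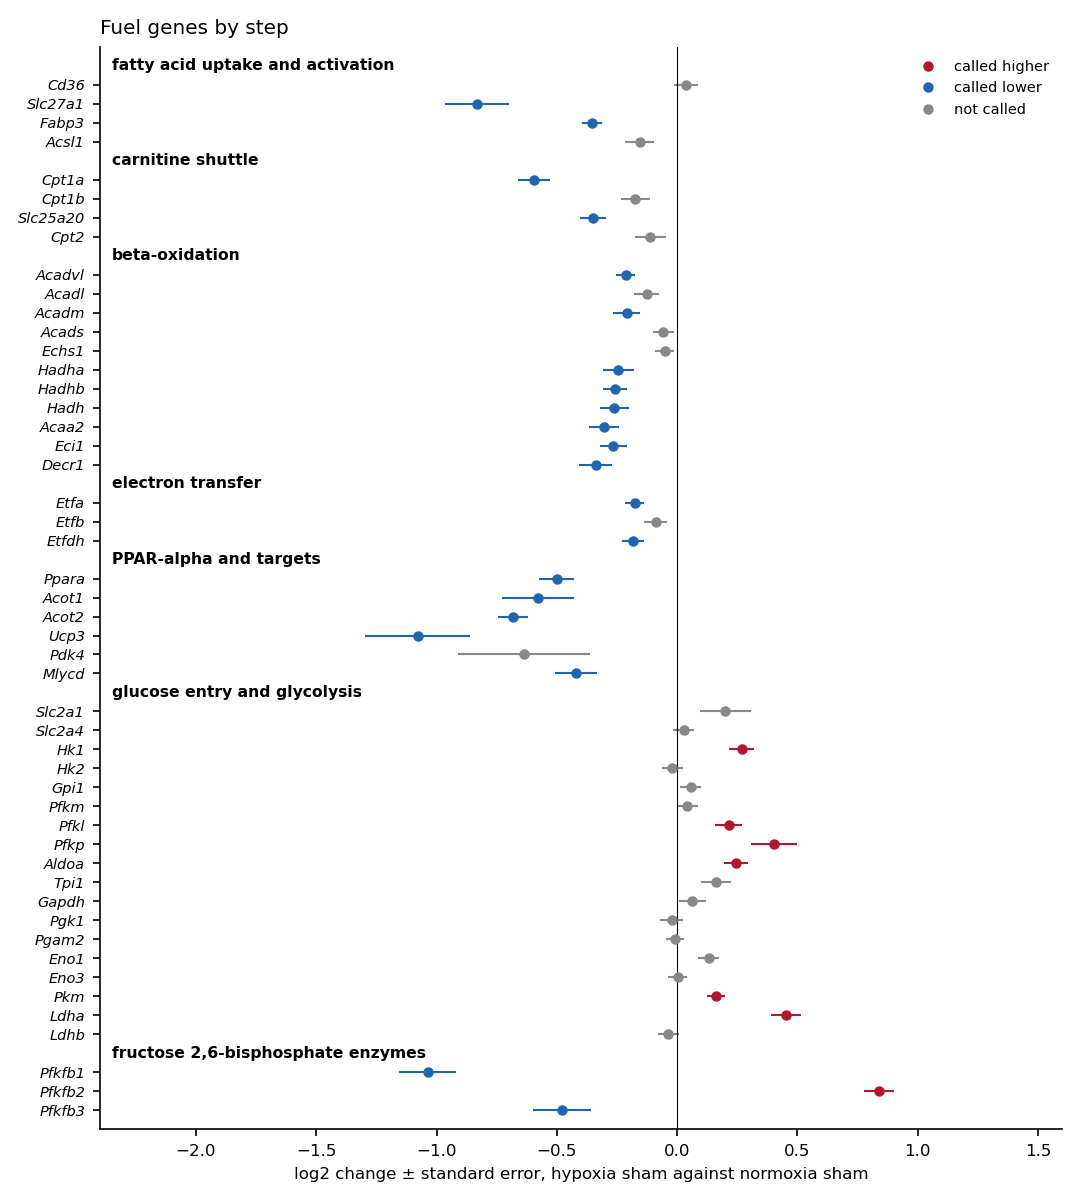
Log2 change with its standard error (horizontal axis) for fuel genes ordered by step, hypoxia sham against normoxia sham, 6 libraries a group; blue genes fell, red genes rose and grey genes were not called. The fatty acid steps lie between -0.83 and 0.04, and the 3 fructose 2,6-bisphosphate isoforms between -1.04 and 0.84.

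Few genes of the oxidative machinery were called. Of 49 nuclear-encoded respiratory chain subunits, 5 fell and none rose, against 4.93% of all tested genes that fell, with a median of -0.03; the count was 2 or 3 without normoxia sham 1, normoxia sham 2, hypoxia sham 1, hypoxia sham 2, hypoxia sham 3 or hypoxia sham 6, and 8 or 9 with median-of-ratios scaling, DESeq2 or limma-voom. Without normoxia sham 3, 3 members rose. The complex I subunit Ndufb5 (log2 change -0.16 ± 0.04, adjusted p = 0.00914) and the ATP synthase subunit Atp5h (log2 change -0.16 ± 0.04, adjusted p = 0.0113) fell in every such fit. Of 20 genes of the citric acid cycle and pyruvate entry, only Dlat, a pyruvate dehydrogenase subunit, fell in every fit (log2 change -0.23 ± 0.05, adjusted p = 0.00571), and 2 rose without normoxia sham 3. Cox6b2, a cytochrome c oxidase subunit isoform known from testis and in neither list, fell from 0.845, 2.3 and 3.54 CPM to 0.187, 0.536 and 0.884 CPM (log2 change -1.98 ± 0.36, adjusted p = 0.00152), with overlap through normoxia sham 1. Ndufa4l2, a respiratory chain subunit paralogue known as a HIF target but not in the HIF target list above, rose from 36.2, 40.3 and 41.7 CPM to 45.1, 47.8 and 52.5 CPM (log2 change 0.28 ± 0.06, adjusted p = 0.00376), with no overlap. Oxct1, the enzyme that starts ketone body use, rose by 0.23 ± 0.05 (log2 change). Transcripts of the 13 proteins encoded by mitochondrial DNA were not analysed here.

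Among genes of hypertrophy and wall stress, 8 of 17 rose and 1 fell (median 0.33), 6 of the 8 in every fit without 1 library, and 2 falling without hypoxia sham 5. Nppb, which encodes the natriuretic peptide BNP released by stretched ventricular muscle, rose from 23.9, 46.4 and 55.5 CPM to 96.6, 128 and 159.7 CPM (log2 change 1.58 ± 0.20, adjusted p = 0.000944). Every hypoxia library was well above every normoxia library. Rcan1, an inhibitor of calcineurin that is itself induced by calcineurin and NFAT, rose from 15.9, 22.4 and 49.5 CPM to 69.3, 103 and 146 CPM (log2 change 2.04 ± 0.29, adjusted p = 0.00154). The groups were again separate, although normoxia sham 1 stood well above the other normoxia libraries. Ccn2, a matricellular growth factor modulator, rose from 2.87, 3.94 and 4.89 CPM to 5.84, 6.36 and 10.2 CPM (log2 change 0.81 ± 0.16, adjusted p = 0.00264). Smaller rises were seen in the stretch-related LIM proteins Fhl1 (log2 change 0.40 ± 0.09, adjusted p = 0.0123) and Csrp3 (log2 change 0.27 ± 0.05, adjusted p = 0.00352) and in Xirp2 (log2 change 0.29 ± 0.06, adjusted p = 0.00664), while its relative Xirp1 fell (log2 change -0.34 ± 0.09, adjusted p = 0.0193), a call that was lost without the low-count filter.

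The other classical load genes did not pass. Nppa, which encodes the related atrial peptide, was measured at 147, 228 and 278 CPM under normoxia and 217, 321 and 513 CPM under hypoxia; the 3 highest values belonged to hypoxia sham 1, 2 and 3, the groups overlapped, and the change was 0.60 ± 0.24 on the log2 scale (adjusted p = 0.137). Myh7, the slow myosin heavy chain, changed by -0.34 ± 0.13 on the log2 scale (adjusted p = 0.118) and the skeletal alpha-actin Acta1 by 0.33 ± 0.41 on the log2 scale (adjusted p = 0.665), both uncalled. Ankrd1 missed the threshold (log2 change 0.44 ± 0.15, adjusted p = 0.0835). Among structural genes Tcap, the titin cap telethonin of the Z-disc, fell from 2962, 3726 and 4903 CPM to 1023, 1205 and 1849 CPM (log2 change -1.49 ± 0.17, adjusted p = 0.000467), the only strong fall in a list of 22 sarcomere and Z-disc genes with a median of -0.01. The groups did not overlap, and hypoxia sham 5 and 6 stood nearest to normoxia. Its partner Ttn rose slightly (log2 change 0.21 ± 0.05, adjusted p = 0.00956). The fall of Myh6, the main adult myosin heavy chain, was lost without normoxia sham 2 or hypoxia sham 3 (log2 change -0.17 ± 0.05, adjusted p = 0.0214).

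Excitability genes changed singly. Scn4b, an auxiliary subunit of the cardiac sodium channel, fell from 30.6, 44.3 and 52.4 CPM to 15.6, 21 and 24 CPM (log2 change -1.11 ± 0.15, adjusted p = 0.000692). The groups did not overlap, and hypoxia sham 5 and 6 were the lowest. Gja1, which encodes the gap junction protein connexin 43, rose from 1104, 1209 and 1504 CPM to 1397, 1534 and 1725 CPM (log2 change 0.29 ± 0.07, adjusted p = 0.0126); the groups overlapped, and the call was lost without the low-count filter. Adrb1, the main cardiac beta-adrenergic receptor, fell from 3.82, 5.08 and 6.25 CPM to 2.11, 3.26 and 3.7 CPM (log2 change -0.79 ± 0.17, adjusted p = 0.00497), with no overlap. Adcy6, a major cardiac adenylyl cyclase downstream of it, fell as well (log2 change -0.28 ± 0.07, adjusted p = 0.0165). Of 15 calcium cycling genes, 1, Asph, was called higher, and the call held only without normoxia sham 1 or 5.

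**Figure D4:**
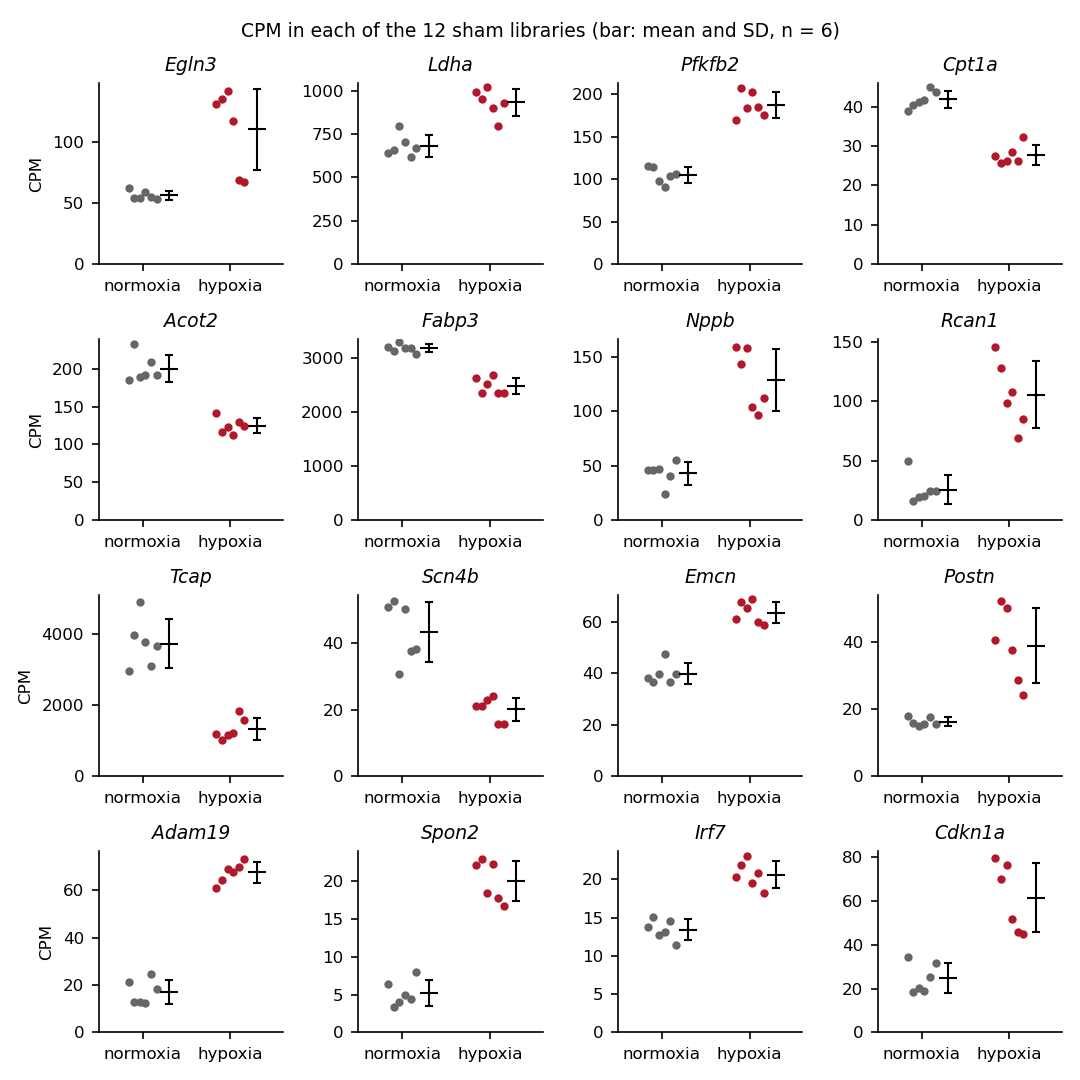
CPM (vertical axes, from 0) of 16 genes in each of the 6 normoxia sham (grey) and 6 hypoxia sham (red) libraries, in order of library number, with the mean and SD of each group. The 16 were picked from the genes named in the text, and in all 16 the groups are separate, which was so for 5.14% of all tested genes. Hypoxia sham 5 and 6 stand nearest to normoxia for Egln3, Postn and Tcap, and among the lowest for Scn4b.

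Among the cell type lists, that of the endothelium held the most rises. Of 20 endothelial markers 11 rose and 2 fell (median 0.24), 10 of the rises in every fit without 1 library. The falls, in Aqp1 and Flt1, did not hold: none was left without normoxia sham 2, hypoxia sham 2 or hypoxia sham 3, and 1 without normoxia sham 4, hypoxia sham 4 or hypoxia sham 6. The summed level of the 20 markers ran from 1964 to 2155 CPM under normoxia and from 2164 to 2431 CPM under hypoxia. Emcn, which encodes the capillary and venous surface protein endomucin, rose from 36.6, 38.9 and 47.6 CPM to 58.9, 63.2 and 68.7 CPM (log2 change 0.68 ± 0.07, adjusted p = 5.94e-06), with no overlap. Vwf, the clotting glycoprotein made by endothelium, rose from 10.1, 16.2 and 18.2 CPM to 17.3, 31.5 and 37.3 CPM (log2 change 0.95 ± 0.20, adjusted p = 0.00904), and hypoxia sham 6 lay within the normoxia range. The junction proteins Pecam1 (log2 change 0.41 ± 0.06, adjusted p = 0.00029), Cdh5 (log2 change 0.31 ± 0.06, adjusted p = 0.0024) and Ecscr (log2 change 0.43 ± 0.07, adjusted p = 0.000893) and the receptors Kdr (log2 change 0.35 ± 0.07, adjusted p = 0.00463) and Tek (log2 change 0.34 ± 0.06, adjusted p = 0.00113) rose by less. Cldn5 rose too (log2 change 0.69 ± 0.15, adjusted p = 0.00907), a call lost when library number was entered as a block.

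Among 25 angiogenic ligands and receptors, 4 rose and 2 fell, beside 6.57% and 4.93% of all tested genes. This list shares members with the endothelial markers above: the rises of Kdr and Tek and the fall of Flt1 are counted in both. Only 1 fell without normoxia sham 4 or hypoxia sham 2, 3, 4 or 6. Aplnr, the apelin receptor of sprouting vessels, rose from 70.1, 83.4 and 109 CPM to 136, 154 and 171 CPM (log2 change 0.81 ± 0.10, adjusted p = 0.000149), with every hypoxia library above every normoxia library. Its ligand gene Apln did not pass (log2 change -0.08 ± 0.14, adjusted p = 0.755). Nrp1, a co-receptor for vessel growth factors, rose slightly (log2 change 0.25 ± 0.05, adjusted p = 0.00352), and Pgf, a growth factor of the same family as Vegfa, fell (log2 change -0.59 ± 0.15, adjusted p = 0.0142). Tm4sf1, a membrane protein enriched in endothelium, rose from 65.9, 74.5 and 80.2 CPM to 108, 115 and 131 CPM (log2 change 0.66 ± 0.06, adjusted p = 2.52e-06), with no overlap. Prox1, the lymphatic master regulator that heart muscle also expresses, rose (log2 change 0.47 ± 0.07, adjusted p = 0.000265), whereas the lymphatic markers Lyve1 (-0.21) and Flt4 (-0.10) did not pass. Of 11 endocardial, arterial and venous genes, 2 were called higher, Bmx and Vcam1, and neither in every fit without 1 library; Bmx was lost without hypoxia sham 3, and Vcam1 held only without normoxia sham 4 or hypoxia sham 4, 5 or 6.

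Pericyte and smooth muscle markers rose in 4 of 13 (median 0.28), a count of 2 without normoxia sham 2, 3, 4 or 5 or without hypoxia sham 2. The 2 that held were Steap4, from 54.2, 60.7 and 68.4 CPM to 81.2, 92.5 and 106 CPM (log2 change 0.59 ± 0.07, adjusted p = 3.44e-05), and Vtn, from 26.6, 32.5 and 34.5 CPM to 41.1, 45.9 and 47.1 CPM (log2 change 0.53 ± 0.07, adjusted p = 5.5e-05). Neither showed overlap between groups. Of 18 vasoactive genes 2 were called higher and 1 lower, beside 6.57% and 4.93% of all tested genes. None of these calls held in every fit without 1 library. Among those that did not pass were Edn1, which encodes endothelin-1 (log2 change 0.30 ± 0.15, adjusted p = 0.202), and the angiotensin-converting enzyme Ace (log2 change 0.01 ± 0.12, adjusted p = 0.974).

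Transcripts of the extracellular matrix rose in several classes. Matricellular proteins and proteoglycans led, with 13 of 18 higher and 1 lower (median 0.54), 10 of the rises in every fit without 1 library, and 2 falling without hypoxia sham 5. Postn, which encodes periostin, made by activated fibroblasts, rose from 14.9, 15.8 and 18.1 CPM to 24.2, 39.1 and 52.1 CPM (log2 change 1.25 ± 0.17, adjusted p = 0.000899). Its normoxia values were tightly grouped, and hypoxia sham 5 and 6 were the lowest of the hypoxia values. Thbs1, a matrix protein that activates latent TGF-beta, rose from 3.68, 4.63 and 6.59 CPM to 7.1, 10.8 and 12.2 CPM (log2 change 1.08 ± 0.17, adjusted p = 0.000373). Tnc, a matrix protein of injured muscle, rose at a very low level, from 0.17, 0.586 and 0.876 CPM to 1.33, 1.47 and 2.11 CPM (log2 change 1.45 ± 0.28, adjusted p = 0.00264). All 3 were separate between groups. Fbn1, which encodes the microfibril protein fibrillin-1, changed by 0.73 ± 0.12 and Fn1, fibronectin, by 0.48 ± 0.09, both on the log2 scale. Thbs2 was the member that fell (log2 change -0.54 ± 0.10, adjusted p = 0.00215).

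Fibrillar collagens and their processing genes rose in 8 of 18 and fell in 1 (median 0.29); 5 rose without hypoxia sham 1, 2 or 3, and the fall, in Plod2, held only without normoxia sham 1 or 3 or hypoxia sham 1 or 5. Col1a2, a chain of type I collagen, rose from 51.5, 56.6 and 64.8 CPM to 71.3, 77.1 and 88.4 CPM (log2 change 0.47 ± 0.07, adjusted p = 0.000265). Sparc, a collagen-binding protein, rose from 169.7, 222 and 244 CPM to 278, 338 and 457 CPM (log2 change 0.72 ± 0.14, adjusted p = 0.00656). In both, all hypoxia libraries were above all normoxia libraries. The calls of Col1a1 (log2 change 0.65 ± 0.16, adjusted p = 0.023) and Col3a1 (log2 change 0.79 ± 0.21, adjusted p = 0.0371) did not hold in every fit: Col1a1 was lost without hypoxia sham 1, 2 or 3 and Col3a1 without normoxia sham 2, 3, 4 or 6 or hypoxia sham 1, 2, 3 or 4. Of 16 basement membrane genes 6 rose, 3 without normoxia sham 4 (and 1 fell without normoxia sham 3); the laminin chains Lama4 (log2 change 0.39 ± 0.06, adjusted p = 0.000364) and Lamb1 (log2 change 0.38 ± 0.05, adjusted p = 0.000154) held. Of 12 resident fibroblast markers 4 rose, 2 without normoxia sham 2, normoxia sham 4 or hypoxia sham 2 and 7 without hypoxia sham 5; the collagen-binding proteoglycan gene Lum (log2 change 0.56 ± 0.09, adjusted p = 0.000798) and Dpt (log2 change 0.38 ± 0.07, adjusted p = 0.00217) held. The part of fibroblast markers in the matrix results was not tested. The summed level of these 12 markers ran from 3391 to 3843 CPM under normoxia and from 3767 to 4372 CPM under hypoxia.

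Matrix proteases and a secreted matrix protein were among the largest rises outside the clock lists. Adamts4, a protease that cuts proteoglycans, rose from 0.595, 0.731 and 1.78 CPM to 3.33, 4.6 and 6.19 CPM (log2 change 2.14 ± 0.25, adjusted p = 3.44e-05). Adam19, a membrane-bound protease known from heart valve development, rose from 12.4, 15.6 and 24.7 CPM to 60.9, 68.3 and 73.3 CPM (log2 change 1.99 ± 0.16, adjusted p = 3.36e-05). Spon2, a secreted matrix protein, rose from 3.41, 4.69 and 7.96 CPM to 16.8, 20.3 and 23 CPM (log2 change 1.95 ± 0.17, adjusted p = 3.96e-06). In all 3 the lowest hypoxia library lay well above the highest normoxia library. In the list of 20 proteases and inhibitors 6 rose and 3 fell (median 0.23), with 3 rising without normoxia sham 4, hypoxia sham 1 or hypoxia sham 2. Among the falls, Timp3 fell from 397, 431 and 480.1 CPM to 274, 324 and 342 CPM (log2 change -0.45 ± 0.06, adjusted p = 9.39e-05) and Timp4 from 71.8, 99.4 and 118 CPM to 47.8, 55.4 and 67.9 CPM (log2 change -0.78 ± 0.13, adjusted p = 0.00242), both tissue inhibitors of metalloproteinases. Both were separate between groups. Within the TGF-beta family, none of 18 rose (3 did without normoxia sham 5, and 1 without normoxia sham 1, 2, 3, 4 or 6 or hypoxia sham 5) and 2 fell, 1 without normoxia sham 2 or hypoxia sham 3. The fall that held was in Smad7, the inhibitory SMAD that TGF-beta induces (log2 change -0.62 ± 0.14, adjusted p = 0.00926).

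Interferon-stimulated genes rose together: 18 of 30 rose and none fell, beside 6.57% of all tested genes, with a median of 0.42, and 14 of the 18 held in every fit without 1 library. Irf7, the transcription factor that amplifies the interferon response, rose from 11.4, 13.5 and 15.1 CPM to 18.2, 20.6 and 23.1 CPM (log2 change 0.62 ± 0.08, adjusted p = 0.000134). Usp18, which removes the ubiquitin-like protein ISG15, rose from 8.21, 9.5 and 10.7 CPM to 11.8, 14 and 15.2 CPM (log2 change 0.56 ± 0.10, adjusted p = 0.00117). Ifih1, the RNA sensor MDA5, rose from 11.2, 13.9 and 16.1 CPM to 16.8, 19 and 22.4 CPM (log2 change 0.47 ± 0.10, adjusted p = 0.00375). The groups were separate for all 3, with small gaps. Bst2, the membrane protein tetherin, rose with some overlap (log2 change 0.52 ± 0.10, adjusted p = 0.00208), as hypoxia sham 4 and 6 lay at the level of the highest normoxia library. Ifit1 (log2 change 0.57 ± 0.14, adjusted p = 0.0123) and Isg15 (log2 change 0.61 ± 0.16, adjusted p = 0.0166) rose too; the call of Isg15 was lost when counts were thinned to the smallest library.

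The upstream windows of Isg15, Ifit1 and Bst2 are shown because interferon acts through a short element in the promoters of its targets. Each line holds the 250 bases before a RefSeq start site (build GRCm38.p6), with GAAANNGAAA on either strand in capitals. Where a gene had several start sites, the window with the most matches is shown.
Isg15 (chr4:156200819-156201068, reverse strand): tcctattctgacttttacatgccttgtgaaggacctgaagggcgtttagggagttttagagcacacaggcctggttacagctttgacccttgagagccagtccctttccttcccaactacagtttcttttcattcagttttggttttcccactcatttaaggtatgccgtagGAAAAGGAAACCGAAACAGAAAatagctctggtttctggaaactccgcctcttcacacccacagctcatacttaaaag
Ifit1 (chr19:34640639-34640888, forward strand): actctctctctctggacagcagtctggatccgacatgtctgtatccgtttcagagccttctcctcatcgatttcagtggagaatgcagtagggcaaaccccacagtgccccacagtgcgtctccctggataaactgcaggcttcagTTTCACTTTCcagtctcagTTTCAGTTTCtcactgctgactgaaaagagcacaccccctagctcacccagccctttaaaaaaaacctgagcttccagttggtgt
Bst2 (chr8:71537473-71537722, reverse strand): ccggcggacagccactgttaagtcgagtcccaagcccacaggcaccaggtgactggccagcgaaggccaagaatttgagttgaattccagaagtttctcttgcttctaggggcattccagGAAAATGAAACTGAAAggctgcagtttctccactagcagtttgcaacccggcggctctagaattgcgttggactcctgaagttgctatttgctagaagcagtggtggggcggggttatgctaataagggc
Overlapping matches run together in the Isg15 window, which held 3, and the Bst2 window, which held 2, while the 2 in the Ifit1 window are separate and on the other strand. The letters were found in 12 of the 22 interferon-stimulated genes with a window, 8 of them among the 14 that rose, and in 2.98% of all windows. A gene was counted if any of its windows held a match, so shares of genes are not alike to shares of windows. Among tested genes the letters were found in 5.17% of those that rose, 1.45% of those that fell and 3.00% of those not called. Of the 14409 tested genes 11175 had a window, and a match of letters does not show that a factor binds there.

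Other immune genes moved less evenly. Of 18 macrophage and monocyte markers 6 rose (median 0.22), 3 without normoxia sham 1, 2, 3 or 5 or without hypoxia sham 2. The 3 that held were Adgre1, which encodes the macrophage antigen F4/80, from 8.25, 9.2 and 14.7 CPM to 14.3, 17.5 and 19.2 CPM (log2 change 0.66 ± 0.15, adjusted p = 0.00755), the mannose receptor Mrc1 (log2 change 0.50 ± 0.09, adjusted p = 0.00173) and the lysozyme Lyz2 (log2 change 0.43 ± 0.09, adjusted p = 0.00839). Their summed level ran from 356 to 457 CPM under normoxia and from 438 to 552 CPM under hypoxia. Its part in the rise of interferon-stimulated genes was not tested. Neutrophil genes were close to absent, with at most 22 reads of S100a9 and 3 of Ly6g in any sham library, and lymphocyte genes were low, with at most 7 reads of Cd3e; none of the 6 lymphocyte and 2 neutrophil genes tested passed. Complement genes rose in 7 of 16 (median 0.25), 3 or 4 without normoxia sham 1, 2, 3 or 5 or without hypoxia sham 1, 2 or 3. The complement regulators Cd55 (log2 change 0.47 ± 0.12, adjusted p = 0.0117) and Serping1 (log2 change 0.22 ± 0.05, adjusted p = 0.00904) held.

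Of 18 cytokine, chemokine and adhesion genes 5 rose and 1 fell, the chemokine Ccl11, whose call was lost without normoxia sham 2, 3, 4 or 6 or hypoxia sham 2, 3, 4 or 6. Icam1, an adhesion molecule for white cells, rose from 7.12, 10.6 and 14.8 CPM to 14.4, 22 and 27.3 CPM (log2 change 1.01 ± 0.21, adjusted p = 0.00911), and hypoxia sham 5 lay inside the normoxia range. Ccl2, which attracts monocytes, rose from 4.43, 5.43 and 6.76 CPM to 5.34, 10.3 and 14.8 CPM (log2 change 0.87 ± 0.20, adjusted p = 0.01), and Cxcl1, which attracts neutrophils, from 0.436, 0.805 and 1.03 CPM to 0.814, 1.76 and 3.45 CPM (log2 change 1.41 ± 0.34, adjusted p = 0.0101). Both overlapped between groups, through hypoxia sham 5 for Ccl2 and hypoxia sham 4 for Cxcl1. Cxcl12, a stromal chemokine and HIF target that is also not in the HIF target list, rose evenly from 233, 271 and 307 CPM to 325, 365 and 387 CPM (log2 change 0.42 ± 0.06, adjusted p = 0.000349), with no overlap.

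Transcripts of endoplasmic reticulum chaperones rose in part. Of 20 chaperone and unfolded protein response genes, 9 rose and 1 fell (median 0.17), 7 of the rises in every fit without 1 library. Atf6, a membrane-bound sensor and transcription factor of this response, rose from 88.4, 92.3 and 100.1 CPM to 112, 119 and 128 CPM (log2 change 0.36 ± 0.05, adjusted p = 8.82e-05). Manf, a secreted factor induced by it, rose from 42.4, 49.2 and 58.1 CPM to 64.4, 69.2 and 98.1 CPM (log2 change 0.53 ± 0.11, adjusted p = 0.0053). In both, every hypoxia library exceeded every normoxia library. The protein disulfide isomerases Pdia6, Pdia3 and P4hb rose by 0.30, 0.27 and 0.23 on the log2 scale; P4hb is also a subunit of the collagen prolyl hydroxylase. The 1 that fell was lost without normoxia sham 2, hypoxia sham 2 or hypoxia sham 6. Of 15 genes of the amino acid stress response, 1, the amino acid transporter Slc7a5, rose, and held only without normoxia sham 1 or hypoxia sham 5. Among 15 cytosolic heat shock proteins Hspb6 was called lower (log2 change -0.18 ± 0.05, adjusted p = 0.0172), and without hypoxia sham 5 another was called higher. Of 17 antioxidant genes 2 were called higher and 3 lower, beside 6.57% and 4.93% of all tested genes. Their median was -0.15, with 5 log2 changes above 0. Only 1 was higher without normoxia sham 2, 5 or 6 or hypoxia sham 1 to 4. Only 1 was lower without normoxia sham 2 to 4 or hypoxia sham 3 or 5. The mitochondrial superoxide dismutase Sod2 fell (log2 change -0.16 ± 0.04, adjusted p = 0.00732) and the extracellular Sod3 rose (log2 change 0.40 ± 0.09, adjusted p = 0.0122). Iron handling genes were called in 0 of 10.

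Red cell transcripts rose in the hypoxia libraries, as far as 3 of 10 genes called, with a median of 0.69. The beta-globin Hbb-bs was measured at 359.5, 523 and 727 CPM under normoxia and 575, 871 and 1291 CPM under hypoxia (log2 change 0.81 ± 0.22, adjusted p = 0.0375), with overlap between groups. The 3 calls, Hbb-bs, Hbb-bt and Hba-a1, held only without normoxia sham 4 or hypoxia sham 5 (5 calls each). Without normoxia sham 1 there was 1 call, and without any of the other libraries 0. Globin reads were 0.063% to 0.130% of a normoxia sham library and 0.108% to 0.223% of a hypoxia sham library. Near-identical globin genes share reads, and the amount of blood left in the tissue was not given in the labels.

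Some genes of stress and growth signalling in the nucleus rose. Cdkn1a, which encodes the cell cycle inhibitor p21, rose from 18.3, 22.7 and 34.3 CPM to 44.7, 60.9 and 79.4 CPM (log2 change 1.31 ± 0.22, adjusted p = 0.00353). Fos, a subunit of the transcription factor AP-1, rose from 0.872, 1.31 and 2.31 CPM to 2.72, 5.13 and 7.89 CPM (log2 change 1.73 ± 0.28, adjusted p = 0.000907), and Myc, a growth-promoting transcription factor, from 2.87, 4.17 and 4.55 CPM to 5.31, 8.16 and 9.8 CPM (log2 change 0.96 ± 0.16, adjusted p = 0.000643). All 3 were separate between groups. Of 15 immediate-early genes 5 rose, beside 6.57% of all tested genes, and 3 rose without normoxia sham 1, 3 or 6 or without hypoxia sham 1, 3, 5 or 6. Nr4a1 was the third that held (log2 change 0.90 ± 0.19, adjusted p = 0.0067). Of 23 cell division genes 4 rose, beside the same 6.57%, and 7 rose without normoxia sham 5. The 4 were Cdkn1a, which restrains division, and Mki67 (log2 change 0.93 ± 0.21, adjusted p = 0.00798), Cdc20 (log2 change 1.40 ± 0.35, adjusted p = 0.0141) and Top2a (log2 change 1.20 ± 0.34, adjusted p = 0.0313). The last 3 mark dividing cells and were read at a few CPM, with Top2a lost without normoxia sham 2 or 4 or hypoxia sham 2, 3, 4 or 6.

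Glucocorticoid target genes leaned lower, with 4 of 16 falling and 1, Cdkn1a, rising, beside 4.93% and 6.57% of all tested genes. Zbtb16, a transcription factor strongly induced by glucocorticoids, fell from 168, 215 and 242 CPM to 60.6, 91 and 136 CPM (log2 change -1.19 ± 0.20, adjusted p = 0.00342), with no overlap. Fkbp5, a feedback chaperone of the glucocorticoid receptor, fell from 6.97, 9.15 and 12.8 CPM to 4.91, 6.48 and 8.4 CPM (log2 change -0.59 ± 0.15, adjusted p = 0.0173), with overlap. The fall of Mt1 held only without normoxia sham 5 or hypoxia sham 4, and that of Klf9 only without normoxia sham 1 or 4 or hypoxia sham 1 or 3. The count of falls was 2 without normoxia sham 2, 3 or 6 or hypoxia sham 2 or 5, and that of rises 2 without normoxia sham 4 or hypoxia sham 4. Several of these genes follow the time of day, and the harvest hour was not given. Among genes that break down muscle protein, the ubiquitin ligase Trim63 rose (log2 change 0.45 ± 0.09, adjusted p = 0.0048). In purine metabolism, adenosine kinase Adk (log2 change -0.25 ± 0.04, adjusted p = 0.000308) and xanthine dehydrogenase Xdh (log2 change -0.44 ± 0.09, adjusted p = 0.00384) fell, each with no overlap. Ribosomal protein genes were called in 1 of 35, Rpl5 (log2 change -0.24 ± 0.06, adjusted p = 0.013), and their median was 0.02. Without normoxia sham 3, 5 ribosomal protein genes rose, and without normoxia sham 1 or 5, 2 fell.

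Some of the largest or firmest changes fell in no list. Usp2, a deubiquitinase whose level follows the clock, fell from 238, 312 and 412 CPM to 126, 148 and 164 CPM (log2 change -1.09 ± 0.13, adjusted p = 0.00054). Inka2 fell from 29.7, 43 and 53.2 CPM to 16.7, 19.8 and 21.1 CPM (log2 change -1.11 ± 0.13, adjusted p = 0.000166). Fam124b rose from 1.53, 3.07 and 4.57 CPM to 7.66, 9.2 and 9.99 CPM (log2 change 1.61 ± 0.17, adjusted p = 2.07e-05). Dio2, the deiodinase that activates thyroid hormone, rose from 0.535, 1.03 and 1.67 CPM to 2.12, 2.66 and 3.94 CPM (log2 change 1.39 ± 0.24, adjusted p = 0.00096). Rsrp1 rose by a small but even amount, from 392, 397 and 413 CPM to 507, 538 and 579 CPM (log2 change 0.43 ± 0.04, adjusted p = 2.52e-06). In these 5 genes every hypoxia library was on 1 side of every normoxia library.

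The same oxygen contrast could be compared between sham-operated and constricted hearts, because the TAC groups used other libraries (6 hypoxia TAC against 6 normoxia TAC). Fitted alone, the TAC libraries gave 0 called genes of 14267 by edgeR, with 2364 at an unadjusted p below 0.05. Their biological coefficient of variation was 0.323, against 0.106 in the sham libraries. In the model of all 24 libraries 1663 genes passed for hypoxia after TAC. There the TAC libraries take on the smaller spread of the sham libraries, and that count depends on this. Of the 934 sham-higher genes also tested after TAC, 44.4% had a positive log2 change there, against 50.2% of all genes tested in both. Of the 703 sham-lower genes, 41.0% had a negative change, against 49.9%.

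A test of the difference itself, the interaction of oxygen and surgery in the model of 24 libraries, passed for 308 of 15027 genes (2.05%). Of these, 142 were among the 1658 genes called after sham surgery and 8 were clock genes. Nppb is an example: its log2 change was 1.58 after sham surgery and -2.04 after TAC, with an interaction of -3.65 ± 0.89, adjusted p = 0.0406. Rcan1 changed by 2.04 after sham surgery and by -1.93 after TAC, with an interaction of -3.99 ± 1.01, adjusted p = 0.0437. Adam19, with 1.99 and -0.54, had an interaction of -2.55 ± 0.40, adjusted p = 0.00479. On the falling side, Tcap changed by -1.49 and 0.42 (1.89 ± 0.38, adjusted p = 0.0176). Cpt1a went from -0.59 after sham surgery to 0.60 after TAC (1.18 ± 0.25, adjusted p = 0.0193). In these 5 genes the estimated oxygen effect had opposite signs after the 2 operations, although the changes after TAC did not pass by themselves in the fit of the TAC libraries. All 5 were called after sham surgery, and the sham libraries that gave those calls also enter the interaction. Genes with a large sham change are thereby favoured to pass, with an interaction of the opposite sign.

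**Figure D5:**
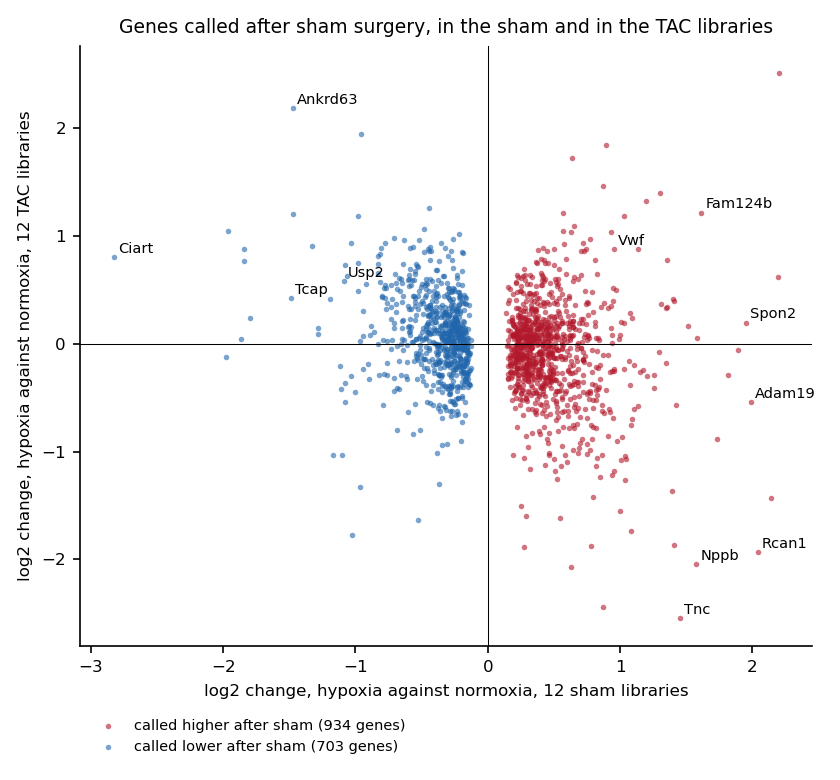
Log2 change under hypoxia in the 12 TAC libraries (vertical axis) against that in the 12 sham libraries (horizontal axis), for the genes that rose (red, 934) or fell (blue, 703) after sham surgery and were tested in both. Nppb and Rcan1 lie at the lower right and Ciart at the upper left, and the points do not follow a rising diagonal.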

How the data were processed

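RNA from the heart apex of 24 samples was sequenced, and 12 samples (normoxia sham and hypoxia sham, 6 each, grouped by title and treatment) were analysed. The authors deposited whole-number read counts per gene symbol; per the submitters' processing notes, bcl2fastq 2.20.0.422, STAR 2.7.3a, featureCounts (Subread 2.0.0) and the build GRCm39 were used, while the strand setting and annotation are not given in the sources used here. Overlapping or antisense genes may therefore share reads.

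Genes kept by filterByExpr (minimum count 10, minimum total 15) were tested with edgeR 4.0.16 (R 4.3.3): TMM scaling, quasi-likelihood fit, Benjamini-Hochberg adjustment, threshold 0.05. CPM were computed from the same scaling, and standard errors from the fit. The interaction of oxygen and surgery used 1 model of all 24 libraries. On simulated counts of 14258 genes, with 50 changed at each size and none of those with few reads, this comparison recovered 28% of 1.25-fold changes. It recovered 82% of 1.5-fold and 100% of 2-fold changes. In the data 11.5% of the genes were called, far more than were changed in the simulation, so the recovery there can differ. DESeq2 1.42.0, limma 3.58.1 (voom), other scalings and filters, a replicate block, a thinning of counts chosen after the depths were seen, and fits without 1 library were alternatives.

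Genes were named by rule: the 15 largest rises and falls with a mean of at least 1 CPM, the 10 smallest p-values, up to 5 members per list by p, and a panel of well-known genes. Acaa2, Acadm, Acot1, Ccl11, Cd36, Cldn5, Cpt1b, Cyp4b1, Decr1, Eci1, Etfa, Etfdh, Fhl1, Flt1, Gapdh, Hadh, Hadha, Hadhb, Hk2, Ifit1, Isg15, Pfkfb3, Pfkl, Pfkp, Pgk1, Pkm, Plod2, Slc2a1, Slc2a4 and Xirp1 fell outside it and were chosen after their values were seen. Some genes that the rule names are not reported here. The comparison and the gene lists were chosen with earlier results of these data known. Promoter windows came from a RefSeq table of build GRCm38.p6 matched by symbol, and no gene coordinates of the count table's build are given.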

Additional observations from a re-analysis of the deposited data

Results flagged for a closer look

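Among 168 genes named in the text, 336 groups of 6 libraries were screened for a library far from the other 5, and 19 groups held one; chance alone gives about 1 in 20 groups. Hypoxia sham 1 had the highest value, standing apart from its group, at 10.2 CPM for Ccn2 (nearest 7.14), 98.1 CPM for Manf (nearest 70.6), 239 CPM for Pdia6 (nearest 221) and 2.89 CPM for Slc7a5 (nearest 1.75). Hypoxia sham 2 had the highest value, standing apart from its group, at 2.11 CPM for Tnc (nearest 1.59). Hypoxia sham 3 had the highest value, standing apart from its group, at 3.8 CPM for Bmx (nearest 2.47). Hypoxia sham 5 had the highest value, standing apart from its group, at 420 CPM for Myh7 (nearest 286) and the lowest value, standing apart from its group, at 41.1 CPM for Vtn (nearest 45.3). Normoxia sham 1 had the highest value, standing apart from its group, at 49.5 CPM for Rcan1 (nearest 24.6) and the lowest value, standing apart from its group, at 11.4 CPM for Plod2 (nearest 17). Normoxia sham 3 had the lowest value, standing apart from its group, at 236 CPM for Xirp1 (nearest 319). Normoxia sham 4 had the highest value, standing apart from its group, at 18.9 CPM for Adm (nearest 13.7), 21.7 CPM for Bst2 (nearest 18.1), 10.4 CPM for Ccl11 (nearest 5.44), 47.6 CPM for Emcn (nearest 39.9) and 28.5 CPM for Vcam1 (nearest 20.8) and the lowest value, standing apart from its group, at 0.869 CPM for Bmx (nearest 1.35). Normoxia sham 5 had the lowest value, standing apart from its group, at 104 CPM for Ppara (nearest 134). Normoxia sham 6 had the highest value, standing apart from its group, at 2.63 CPM for Mki67 (nearest 1.53). 

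The oxygen effect after TAC minus that after sham surgery, the interaction in the model of 24 libraries, passed an adjusted p of 0.05 (edgeR) for 17 of the 168 genes. The sham libraries that served to name many of these genes also enter this interaction. On the log2 scale it was 1.18 for Cpt1a, 1.96 for Pfkfb1, 1.24 for Slc25a42 and 1.63 for Slc27a1 among fuel genes. It was 1.12 for Adcy6, 3.62 for Ciart, -3.65 for Nppb, -3.99 for Rcan1, 1.89 for Tcap, 1.66 for Usp2 and 1.59 for Zbtb16 among muscle, glucocorticoid and clock-linked genes, and -2.55 for Adam19, -1.15 for Cd55, -2.78 for Dio2, 0.69 for Flt1, 1.27 for Thbs2 and -1.05 for Tm4sf1 among matrix, vessel and other genes.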

How the results depend on the processing

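Counts of calls stayed within 1.5 times of 947 higher and 711 lower under every alternative run except 2. One model of all 24 libraries gave 13 higher and 12 lower, all of them among the main calls, and its construction brings in the larger spread of the TAC libraries. Leaving out 1 library gave 646 to 1039 higher and 473 to 879 lower, the lowest count of falls without normoxia sham 2. The library numbers did not pair the samples: same-numbered normoxia and hypoxia libraries deviated together with correlations of -0.2 to 0.08, 0 of 6 above 0.1, and 2 of 6 matched their own number best. A fit with a replicate block gave 819 higher and 629 lower, and for the interaction 319 against 308 genes. With library totals as the only scaling, 1068 rose and 580 fell. Thinning counts to the smallest library gave 903 and 664. The sign changed for 3 genes near 0 that were not called: Ace was at -0.001 with limma-voom and without the low-count filter, and in the fits without 1 library it ran from -0.07 to 0.074, Apln from -0.143 to 0.057 and Hk2 from -0.045 to 0.006. Changes of 1.25-fold were recovered in 28% of simulated cases, so changes of that size can be missed. Far fewer genes were changed in the simulation than were called in the data, so this share is not the recovery of the comparison itself.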
